A study of Mus musculus with 5 samples.

Results

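Translation factors are the proteins that load ribosomes onto messenger RNA and move them along it. The 62 genes described here are the eukaryotic initiation factors 1 to 6 and elongation factors 1 and 2, with their kinases, methyltransferases and inhibitors. They were taken by symbol from the 17739 genes of the deposited table (symbols starting with Eif1 to Eif6, Eef1 or Eef2). The rule left out 3 genes of these families: Eif1ax and the sex-linked pair Eif2s3x and Eif2s3y. It used no measured value.

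Expression was measured by sequencing of strand-specific mRNA libraries from 5 mouse medulloblastomas, tumours of the cerebellum. All 5 came from Math1-Cre;Gli2A mice, bred from Math1-Cre and R26;Gli2A parents and fed doxycycline from conception (embryonic day 0), with GLI2 active per the labels. Math1-Cre acts in granule neuron progenitors, the cells from which tumours of the Sonic hedgehog class arise. Tumour cells were dissociated with papain and their RNA was isolated at once. The tumours are numbered 1, 5, 8, 14 and 15. Age, sex and strain, and whether each number is a separate animal, are not stated in the labels, so every SD below measures the spread between 5 samples and may be partly technical. There is 1 group and no control, and no contrast between conditions was possible.

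Initiation starts when eIF4E binds the cap of an mRNA, the scaffold eIF4G joins it to the helicase eIF4A, and eIF3 brings in the small ribosomal subunit with the initiator tRNA held by eIF2. eIF1, eIF1A, eIF5 and eIF5B then fix the start codon and join the large subunit. During elongation eEF1A delivers each aminoacyl-tRNA and eEF2 moves the ribosome by a codon. Cells slow translation by phosphorylating eIF2 alpha through one of its kinases, by releasing 4E-BP inhibitors onto eIF4E, or by phosphorylating eEF2. The 4E-BP proteins are substrates of the kinase mTOR.

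Values are on a log2 scale, read here as regularised-log values, which correct for library size and not for transcript length. A value of a single gene is given as deposited. Where genes are compared with each other, log2 of the merged exon length in kb was subtracted, and the result is called a level per kb. The columns had medians of 8.51 to 8.58 and read counts were not used, so depth is unknown. Of 8 markers of the granule lineage 7 averaged 12.27 (Gli1) to 15.08 (Zic1), while Atoh1, the Math1 gene itself, averaged 8.62, near the median gene (8.55), and differed 2.81-fold between tumours. The skeletal muscle markers Ckm, Myh4 and Acta1 averaged 2.33, 1.57 and 6.10. Markers of other brain cells were present and were highest in tumour 5 for 6 of 6 oligodendrocyte genes and 5 of 6 microglial genes. The same held for 4 of 4 choroid plexus, 3 of 3 Purkinje cell and 3 of 4 endothelial genes, but for only 2 of 5 astrocyte genes. In RNA pooled from all cells of a dissociated tumour, fewer cells of a type and less RNA per cell cannot be told apart.

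All 62 factors were expressed above the low-value limit used here, a mean of 5. The lowest was Eef1akmt4, at 6.19, and 41 (66.1%) had a mean of at least 10. Of all genes in the table, 77.2% averaged 5 or more and 29.4% averaged 10 or more. Per kb, 56 of 62 lay at or above the median gene of the table (6.47), and the median factor stood at 8.99. Eef1a1, Eef2 and Eif4g2 ranked 1, 5 and 8 among all 17739 genes by deposited value.

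**Figure D1:**
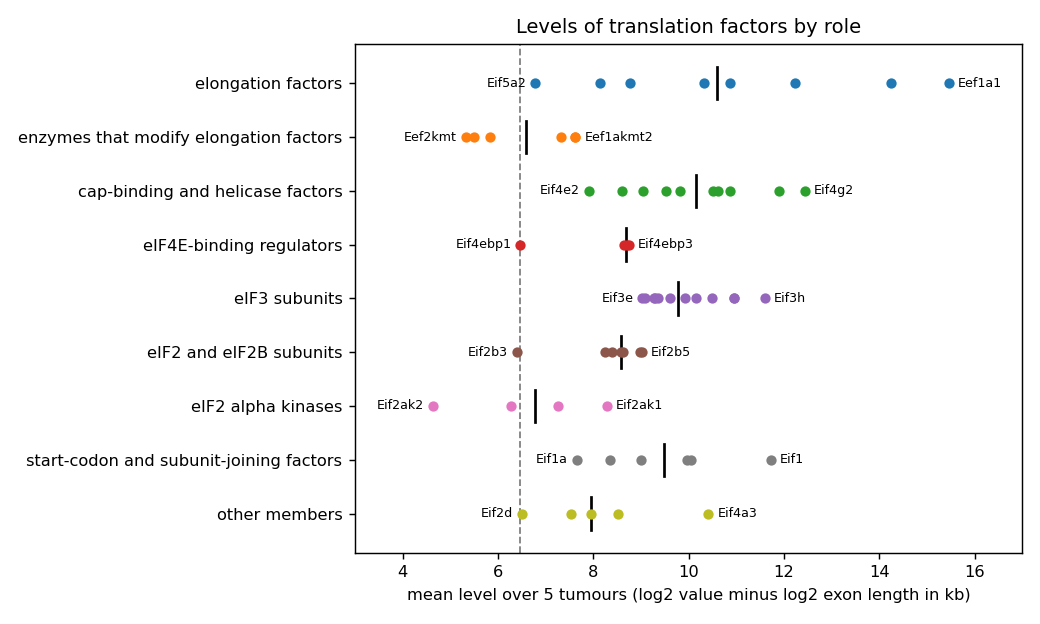
Mean level of each of the 62 factors over 5 tumours (x axis, log2 value minus log2 exon length in kb) by role (rows). Black ticks are the medians of each role and the dashed line is the median gene of the table (6.47); the elongation factors span the widest range, from Eif5a2 at 6.78 to Eef1a1 at 15.45.

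The elongation factors spanned the widest range of any role. Eef1a1 (GRCm38 chromosome 9, 78478449 to 78489151, minus strand, protein coding) encodes the main form of eEF1A, the carrier of aminoacyl-tRNA. It measured 16.83, 16.63, 16.72, 16.76 and 16.91 in tumours 1, 5, 8, 14 and 15. Tumour 15 was highest and tumour 5 lowest, 1.22-fold apart. Eef2, the translocase, measured 16.07, 15.91, 15.99, 15.96 and 15.99 in the same order, and its tumours lay within 1.12-fold. Eef1a2 (chromosome 2, 181147653 to 181157014), the form used by mature neurons and muscle, measured 9.91, 10.14, 9.65, 9.75 and 9.72. It was highest in tumour 5, by 1.4-fold over tumour 8.

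The other elongation factors differed in spread. Eef1b2, Eef1d and Eef1g, which form the exchange complex that recharges eEF1A with GTP, averaged 11.65 ± 0.09, 10.83 ± 0.06 and 12.25 ± 0.14 (SD, n = 5). Eef1g had the larger spread, with an SD of 0.143 above the median of 0.109 for genes averaging 5 or more. Eif5a, which carries the hypusine residue and helps ribosomes past difficult peptide bonds, averaged 13.47 ± 0.02, the smallest SD of the 8 elongation factors. Its paralogue Eif5a2 averaged 9.11 ± 0.08.

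Within every tumour the housekeeping forms Eef1a1 and Eif5a far exceeded their restricted paralogues. Eef1a1 exceeded Eef1a2 by 6.68 ± 0.27 per kb (SD, n = 5), or 103-fold, and Eif5a exceeded Eif5a2 by 5.44 ± 0.06, or 43.4-fold. The Eef1a1 to Eef1a2 difference was 6.67, 6.23, 6.82, 6.75 and 6.93 in tumours 1, 5, 8, 14 and 15. It was smallest in tumour 5, where Eef1a2 was highest and Eef1a1 lowest, and the ratio moved 1.62-fold between tumours. Markers of mature granule neurons also stood highest in tumour 5 for 5 of 6 genes, with a list median of 8.76 there and 6.88 to 7.71 in the others (log2 of their summed level 13.34 against 12.91 to 13.19), and all 6 had means of at least 5. Oligodendrocyte markers were highest there too, with a list median of 12.12 against 10.84 to 11.65 and a summed level of 15.80 against 14.39 to 15.43. Markers of several other brain cells were highest there too, as counted above. The part of any of these cells in the Eef1a2 value was not tested.

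The 6 enzymes that act on the elongation factors had the lowest median of any role, 6.58 ± 0.06 per kb, close to that of the eIF2 alpha kinases (6.77 ± 0.05). Eef2k, the kinase that phosphorylates and stops eEF2, measured 10.65, 10.30, 10.66, 10.46 and 10.43 in tumours 1, 5, 8, 14 and 15. It was lowest in tumour 5 and highest in tumours 1 and 8. Eef2 exceeded its kinase by 6.64 ± 0.11 per kb. Of the methyltransferases of eEF1A and eEF2, Eef1akmt1 averaged 7.26 ± 0.18, Eef1akmt2 8.44 ± 0.05, Eef1akmt4 6.19 ± 0.11, Eef1aknmt 9.11 ± 0.13 and Eef2kmt 6.74 ± 0.16. Per kb, Eef1akmt1 (7.33) and Eef1akmt2 (7.62) lay above the median gene of 6.47 and the others below it. With the longest coding transcript in place of merged exons, Eef1aknmt stood at 6.93 in place of 5.83. The median gene was not computed with that length. Eef1akmt1, Eef1akmt2, Eef1akmt4 and Eef2kmt were all lowest in tumour 8, while Eef1aknmt and Eef2k were highest there. Of the exon length of Eef1akmt4, 30.7% overlaps another gene on the same strand, and how such reads were assigned is not stated in the labels.

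Among the cap-binding and helicase factors, the non-canonical scaffold led as deposited and per kb. With the longest coding transcript in place of merged exons, Eif4a1 stood above it (13.19 against 12.78). Eif4g2 (also called DAP5), which lacks the eIF4E-binding site, measured 15.79, 15.71, 15.81, 15.83 and 15.74 in tumours 1, 5, 8, 14 and 15, within 1.09-fold. Per kb it exceeded the canonical scaffold Eif4g1 by 1.82 ± 0.12, or 3.54-fold, and Eif4g1 exceeded Eif4g3 by 1.08 ± 0.13. Eif4g1 had the larger spread, from 13.35 in tumour 8 to 13.64 in tumour 1 (mean 13.47 ± 0.12). The helicase gene Eif4a1 averaged 14.02 ± 0.06 and exceeded its neuronally enriched paralogue Eif4a2 (12.24 ± 0.07) by 2.08 ± 0.11 per kb, or 4.23-fold. Eif4b and Eif4h, which stimulate the helicase, averaged 13.02 ± 0.08 and 12.97 ± 0.06.

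As deposited, the cap-binding protein itself was among the steadiest of the 62 factors. Eif4e (chromosome 3, 138526179 to 138559696) measured 11.61, 11.64, 11.61, 11.64 and 11.63 in tumours 1, 5, 8, 14 and 15, an SD of 0.014. No tumour stood apart. This range of 0.03 is smaller than the 0.06 between column medians. With each column centred on its median, Eif4e ran from 11.60 in tumour 15 to 11.67 in tumour 14. Eif4e2, a cap-binding protein that represses translation, averaged 10.81 ± 0.04 and lay below Eif4e by 1.14 ± 0.06 per kb. Eif4e3 averaged 9.93 ± 0.11 and was highest in tumour 5, at 10.12 against 9.83 to 9.94. Per kb it lay below Eif4e by 0.44 ± 0.11.

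Among the inhibitors of eIF4E, Eif4ebp1 had the largest spread of the 62 factors over all 5 tumours. Eif4ebp1 (chromosome 8, 27260329 to 27276674, plus strand, protein coding), which encodes 4E-BP1, measured 7.74, 7.24, 7.57, 7.91 and 7.57 in tumours 1, 5, 8, 14 and 15. It was the single factor whose highest and lowest tumours lay over 1.5-fold apart (1.59-fold), and its SD was 0.249. This rank rested on tumours 5 and 14. Without tumour 5 its SD was 0.16 (1.27-fold), below those of Eef1akmt1 (0.21), Eef2kmt (0.19) and Eif2ak2 (0.17). Without tumour 14 it was 0.21 (1.42-fold), below that of Eef1a2 (0.22). Eif4ebp2, the form that predominates in brain, measured 11.25, 11.03, 11.31, 11.33 and 11.27. Tumour 5 was lowest for both, while the other 4 tumours lay within 0.08 of each other for Eif4ebp2. Eif4ebp3 went another way, from 8.2 in tumours 1 and 15 to 8.44 in tumour 5. Its exons overlap another protein-coding model on the same strand over 67.3% of their length, so its value is uncertain. Eif4enif1, which shuttles eIF4E into the nucleus, averaged 11.31 ± 0.07.

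Transcripts of Eif4ebp2 exceeded those of Eif4ebp1 by 2.24 ± 0.16 per kb, or 4.71-fold, in these tumours. Set against their target, Eif4ebp1 minus Eif4e was -2.57 ± 0.25 and Eif4ebp2 minus Eif4e was -0.33 ± 0.13. Both were most negative in tumour 5, at -2.95 and -0.56. The Eif4ebp2 value in the other 4 tumours ran from -0.30 to -0.25.

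**Figure D2:**
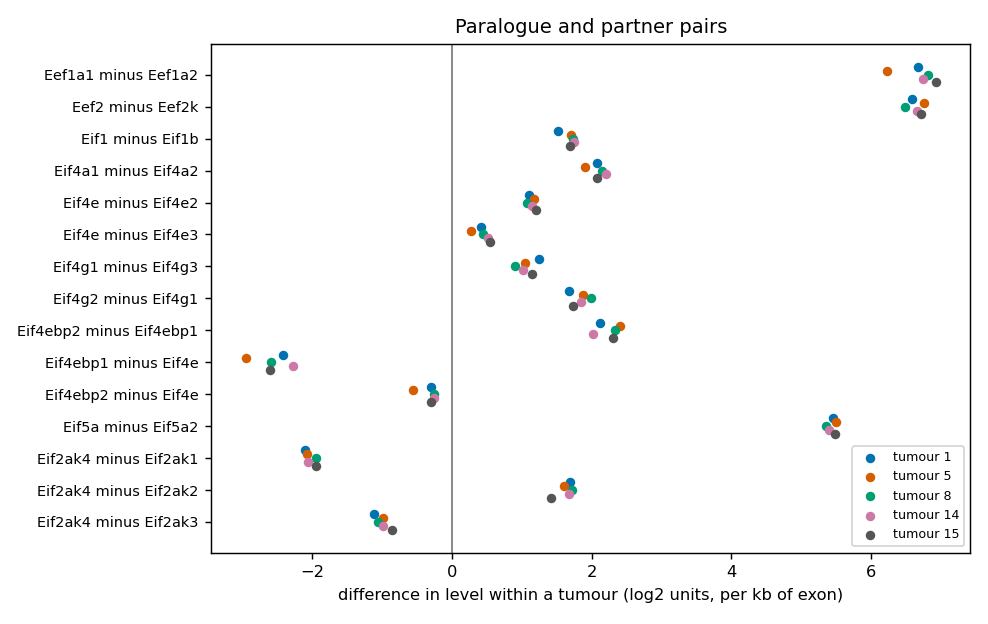
Difference in level between 2 genes within each tumour (x axis, log2 units per kb of exon) for 15 pairs of paralogues or partners (rows), with 1 point per tumour. All points of a pair lie on the same side of 0, and the points of tumour 5 sit lowest for Eef1a1 minus Eef1a2 (6.23) and Eif4ebp1 minus Eif4e (-2.95).

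For all 15 pairs the sign was the same in 5 of 5 tumours. Each gave p = 0.062 in a two-sided exact permutation of signs (adjusted p = 0.062 by Benjamini-Hochberg over 15 pairs), the smallest that 5 tumours allow. No pair could therefore pass 0.05. The sign was also the same without the length correction and with the longest coding transcript in place of merged exons, but not every size was. With transcript length 2 pairs moved by over 1.5-fold: Eif4e exceeded Eif4e2 by 0.30 in place of 1.14, and Eif5a exceeded Eif5a2 by 6.16, or 71.7-fold. Eif4e exceeded Eif4e3 by 0.70 in place of 0.44 with transcript length and by 1.69 without the correction. Without it 7 of 15 pairs moved by over 1.5-fold.

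The 12 eIF3 subunits in the table were the steadiest role as deposited. eIF3 is the large scaffold that binds the small ribosomal subunit. The SD between tumours was between 0.013 (Eif3g) and 0.087 (Eif3a), and all 12 lay under the median SD of genes averaging 5 or more (0.109). Eif3a, with a mean of 12.73, lay just above the median SD of genes averaging 11 and over (0.084). Eif3g measured 10.93, 10.92, 10.91, 10.93 and 10.90 in tumours 1, 5, 8, 14 and 15, and Eif3m 10.64, 10.65, 10.67, 10.63 and 10.63. With each column centred on its median, Eif3g ran from 10.87 to 10.96 and Eif3m from 10.60 to 10.68. Eif3a, the largest subunit, ran from 12.61 in tumour 5 to 12.81 in tumour 15. The core subunits Eif3b and Eif3c averaged 12.23 ± 0.06 and 12.76 ± 0.05. Per kb the subunits of this complex stood within 6.0-fold of each other, from Eif3e (9.03) to Eif3h (11.60), around a median of 9.77 ± 0.04. This order depended on the length used. With the longest coding transcript in place of merged exons, Eif3e stood at 11.19. Eif3m was then lowest (10.28) and Eif3h still highest (11.92). The remaining subunits had means of 11.61 (Eif3d), 11.78 (Eif3e), 12.48 (Eif3f), 12.29 (Eif3h), 10.98 (Eif3i), 10.78 (Eif3k) and 12.02 (Eif3l). Of the Eif3d exon length, 43.3% overlaps an antisense gene, and the strand setting of the counting is not stated in the labels.

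Subunits of eIF2, which carries the initiator tRNA, and of eIF2B, which reloads eIF2 with GTP, stood lower than eIF3, with a median of 8.57 ± 0.05 per kb. Eif2s1, the alpha subunit that stress kinases phosphorylate, averaged 10.69 ± 0.07 and Eif2s2, the beta subunit, 11.34 ± 0.06. The eIF2B subunits averaged 9.62 ± 0.05 (Eif2b1), 9.89 ± 0.11 (Eif2b2), 9.10 ± 0.07 (Eif2b3) and 10.39 ± 0.06 (Eif2b5), with Eif2b4 between 9.94 and 10.04. Per kb, Eif2b3 was the lowest of the 7, at 6.39, and Eif2b5 the highest, at 9.02. With the longest coding transcript in place of merged exons, Eif2b3 stayed lowest (7.19). Eif2s2 (9.99) then stood above Eif2b5 (9.04). Eif2b2 ranged from 9.74 in tumour 1 to 10.01 in tumour 14.

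The 4 kinases of eIF2 alpha were ordered alike in every tumour. Per kb, Eif2ak1 (HRI, the haem-regulated kinase) stood at 8.29, Eif2ak3 (PERK, the sensor of the endoplasmic reticulum) at 7.26, Eif2ak4 (GCN2, the sensor of uncharged tRNA) at 6.27 and Eif2ak2 (PKR, the double-stranded RNA sensor and an interferon-induced gene) at 4.64. Both neighbours of Eif2ak4 in this order differed from it by more than the spread between tumours: Eif2ak4 minus Eif2ak3 ran from -1.11 to -0.86 and Eif2ak4 minus Eif2ak2 averaged 1.62 ± 0.12. Eif2ak2 measured 6.86, 6.97, 6.96, 6.95 and 7.24 in tumours 1, 5, 8, 14 and 15. It was highest in tumour 15, and without that tumour its SD was 0.05 in place of 0.15. Eif2ak1 was steady at 10.80 ± 0.03.

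Factors that pick the start codon and join the subunits had a median of 9.48 ± 0.06 per kb. Eif1, which enforces start-codon choice, measured 12.70, 12.84, 12.87, 12.86 and 12.69 in tumours 1, 5, 8, 14 and 15. Tumours 1 and 15 lay below the other 3. Eif1 exceeded Eif1b by 1.68 ± 0.09 per kb. Eif5, which makes eIF2 hydrolyse GTP, averaged 12.74 ± 0.04 and Eif5b, the joining GTPase, 11.63 ± 0.06. Eif6, which keeps the large subunit from joining early, ran from 10.31 in tumour 15 to 10.57 in tumour 8, and Eif1a averaged 9.71 ± 0.06. Of the remaining members, Eif4a3, a core protein of the exon junction complex, averaged 11.50 ± 0.07. Eif2a averaged 10.57 ± 0.04, Eif2d 9.38 ± 0.09, Eif1ad 9.99 ± 0.12 and Eef1e1, a scaffold protein of the multi-tRNA synthetase complex, 9.24 ± 0.04.

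As a whole, translation factors differed little between tumours. None of the 62 had its highest and lowest tumours over 2-fold apart, where 3.79% of 13691 genes (those averaging 5 or more) did, and 1 exceeded 1.5-fold against 14.7% of those genes. Among the 5209 genes averaging 10 or more 1.59% varied over 2-fold, and none of the 41 factors of that level did. Counts of 0 in 62 and in 41 genes lie near these shares. The share at 1.5-fold was not taken among genes of like level. The median SD of the 62 factors was 0.062, a 1.04-fold difference, against 0.109 for the 13691 genes, and 47 of 62 lay under that value. Genes of high level vary less in such data. Among the 5191 genes with means of 9 to 11 the median SD was 0.092 and that of the 27 factors in this band was 0.060. Among the 2685 genes with means of 11 and over the values were 0.084 and 0.060 for 28 factors. In the lowest band, from 5 to 9, the 7 factors had the same median SD as the 5815 genes, 0.146. These shares and medians are a description with no test.

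**Figure D3:**
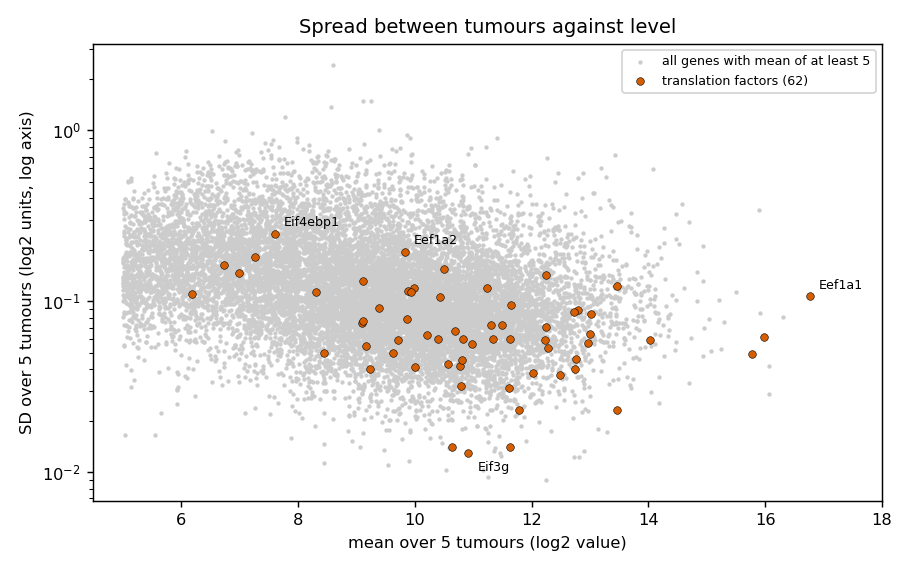
SD over 5 tumours (y axis, log2 units on a log axis) against mean log2 value (x axis) for 13691 genes averaging 5 or more (grey) and the 62 factors (orange). Most factors lie in the lower part of the cloud; Eif4ebp1 (SD 0.249) and Eef1a2 (0.195) have the largest SD and Eif3g (0.013) the smallest.

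The small differences that remained were not spread evenly over tumours. Tumour 5 held the lowest value of 24 of the 62 factors (38.7%), where 24.6% of all genes with a mean of at least 5 were lowest there, and the highest value of 8, where 24.1% of genes were highest there. Tumour 8 held the highest value of 16 (18.5% of genes) and the lowest of 14 (22.6%), and tumour 1 the highest of 12 (20.2%) and the lowest of 8 (16.9%). Tumour 15 held the highest value of 12, against 21.4% of genes, and tumour 14 the lowest value of 2, against 13.0%. Column medians differed by 0.06, where the median factor ranged over 0.16 between tumours, and some of these counts changed with the scaling. With each column centred on its median, 25 factors were lowest in tumour 5, against 26.9% of all genes. After centring, 22 factors were lowest in tumour 15, where 14 were as deposited (22.9% of genes), and 23 were highest in tumour 14, where 14 were as deposited (15.8%). For the centred values the shares of all genes were 32.9% and 24.1%. Many factors were lowest in tumour 5 under both scalings, among them Eif4ebp1, Eif4ebp2, Eef2k, Eef1a1, Eef2 and Eif4g2. Those highest there under both were Eef1a2, Eef1e1, Eif4a2 and Eif4e3.

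**Figure D4:**
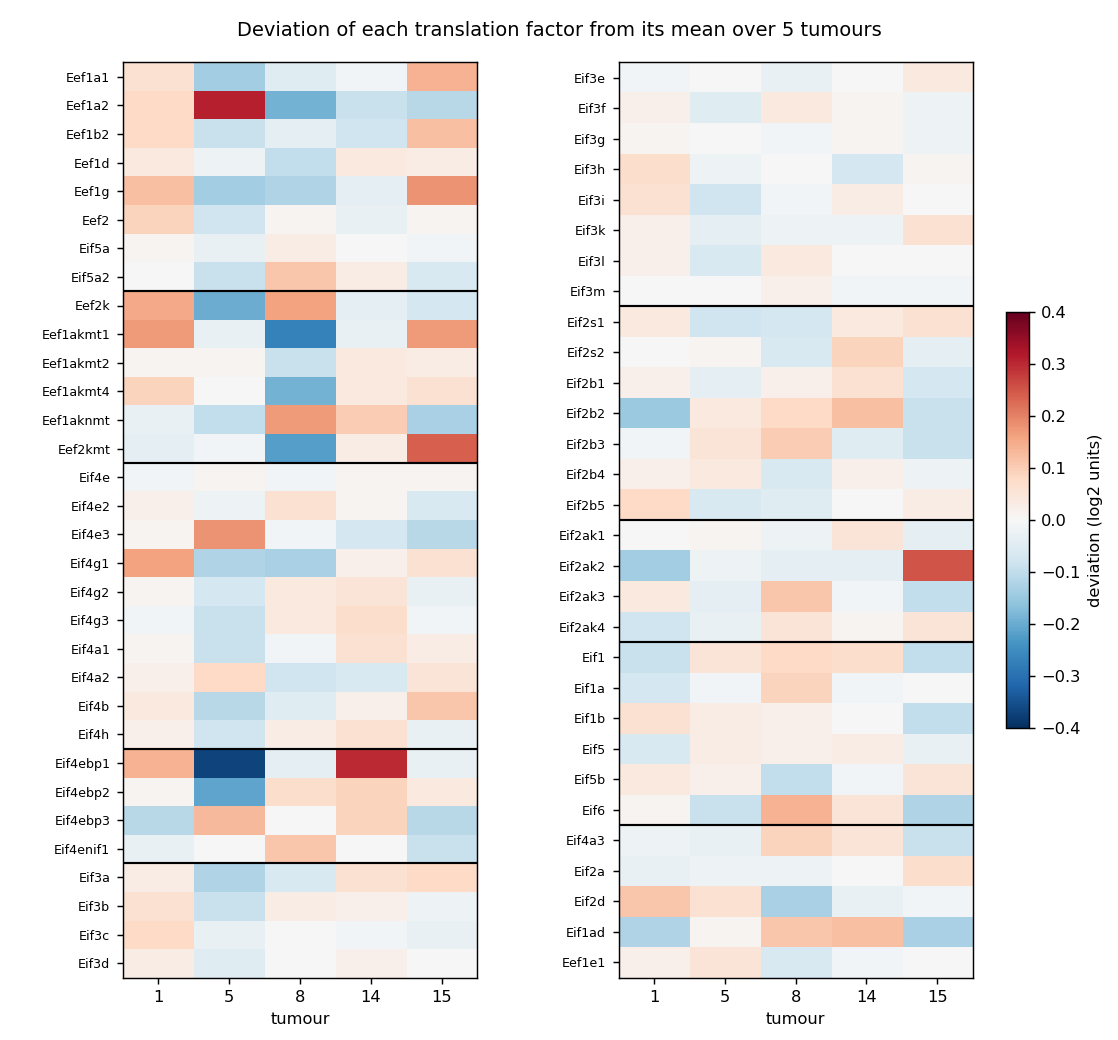
Deviation of each of the 62 factors from its own mean over 5 tumours (colour, log2 units, from -0.4 to 0.4), with tumours in columns and factors in rows, ordered by role with black lines between roles. The strongest colours are Eif4ebp1 (-0.37 in tumour 5, 0.30 in tumour 14) and Eef1a2 (0.31 in tumour 5), and the eIF3 rows are nearly blank.

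The ribosomal protein genes had a profile in common, which the factors held at about the share of all genes. Of 79 cytosolic ribosomal protein genes with a mean of at least 5, 66 were highest in tumour 15 and lowest in tumour 5, with median deviations of 0.13 and -0.13. Among the factors 7 of 62 (11.3%) had these extremes, against 7.84% of all genes: Eef1a1, Eef1b2, Eef1g, Eif2s1, Eif3a, Eif3k and Eif4b. Eef1g measured 12.37, 12.11, 12.13, 12.21 and 12.43 in tumours 1, 5, 8, 14 and 15, and Eif4b 13.06, 12.91, 12.97, 13.04 and 13.13. The pattern was chosen after its values were seen. With columns centred, 56 ribosomal protein genes and 4 factors (6.45%) showed it, against 6.62% of all genes. Eef1a1, Eef1g and Eif4b had it under both scalings.

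**Figure D5:**
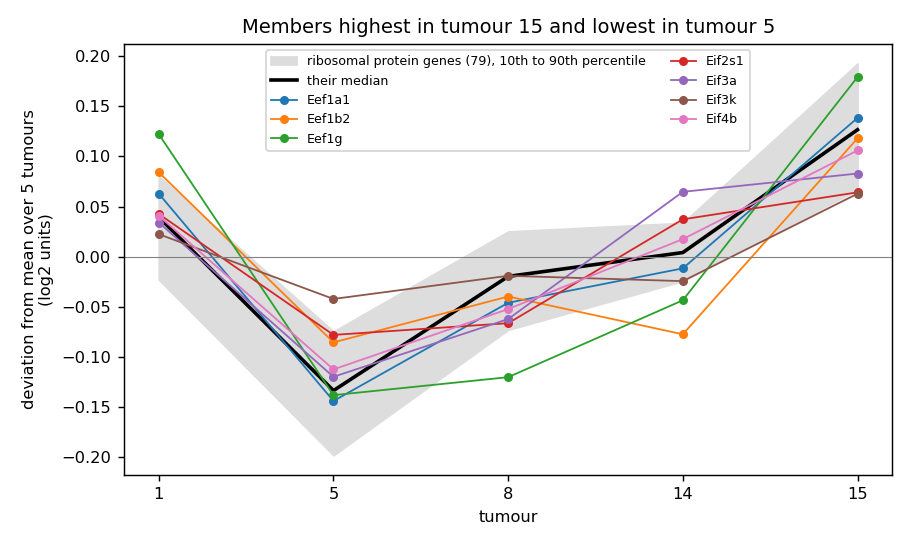
Deviation from the mean over 5 tumours (y axis, log2 units) by tumour (x axis, in no order) for the 7 factors that were highest in tumour 15 and lowest in tumour 5 (coloured, lines join the points of a gene). The black line is the median of 79 ribosomal protein genes and the grey band their 10th to 90th percentile; Eef1a1 lies close to that median.

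Start regions were then read from RefSeq (GRCm38.p6) as windows of 300 bases (250 before and 50 after each annotated start). Windows of any other length were left out, as were all on the chromosome that carries Eif1a and Eif4ebp3. This left 49 of the 62 factors with a window. The same filter was applied to all genes of the table. The letters CACGTG, the E-box bound by MYC-family and other basic helix-loop-helix factors and the same on both strands, were found in 14 of 49 factors (28.6%). They were in 10.7% of the 13736 genes of the table with a window, in 12.3% of those with a mean of at least 10 and in 9.84% of 61 ribosomal protein genes. The 14 are Eef2, Eef2k, Eef1akmt4, Eef1aknmt, Eif1b, Eif3a, Eif3f, Eif3k, Eif4a1, Eif4e, Eif4g1, Eif4h, Eif5a and Eif5a2. Of the cap-binding and helicase factors, Eif4a1, Eif4e, Eif4g1 and Eif4h are among them. A gene with several annotated starts counted where any of its windows held the letters. Counted by window, the letters were in 16 of 64 windows of the factors and in 9.1% of the 17239 windows of the table. The 14 fall in 5 of the 9 roles, and for 9 genes that cover these 5 roles 30 bases around the first match are given 5′ to 3′ on the strand of the gene, with the match in capitals.
Eif4e, chr3:138527028-138527057, plus strand: ctcgccagcgacCACGTGatcacttttttt
Eif4g1, chr16:20672661-20672690, plus strand: ggcagtgggtgtCACGTGatggggcggagc
Eif4a1, chr11:69672595-69672624, minus strand: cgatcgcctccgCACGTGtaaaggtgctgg
Eif4h, chr5:134639488-134639517, minus strand: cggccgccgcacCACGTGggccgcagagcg
Eef2, chr10:81176576-81176605, plus strand: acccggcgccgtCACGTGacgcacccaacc
Eef2k, chr7:120842788-120842817, plus strand: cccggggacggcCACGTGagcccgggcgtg
Eif5a, chr11:69921443-69921472, minus strand: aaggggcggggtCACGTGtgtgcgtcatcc
Eif3k, chr7:28981915-28981944, minus strand: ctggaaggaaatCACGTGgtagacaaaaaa
Eif1b, chr9:120492570-120492599, plus strand: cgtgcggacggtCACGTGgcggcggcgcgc

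The first match lay close to the annotated start in Eif1b (24 bases before it), Eef2k (31), Eef2 (43), Eif3k (44) and Eif4g1 (54). It lay farther off in Eif4h (96), Eif4a1 (189) and Eif4e (228), and 74 or 185 bases before 2 of the annotated starts of Eif5a. A different match lay 178 bases before another start of Eif5a. The Eif4e and Eif4g1 windows with the letters held 2 matches each, and the later one is not placed here. Windows at the other annotated starts of Eif4e and Eef2k held none. In level, the 14 factors with the letters had a median of 9.82 per kb and the 35 without 8.71, with wide overlap (5.50 to 14.25 against 4.64 to 15.45). Their median SD between tumours was 0.062 against 0.060. A match is a run of letters, not a measured binding site.

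Many elongation factor and ribosomal protein mRNAs are known to share a terminal oligopyrimidine start, which lets mTOR control their translation through LARP1. A pyrimidine tract at the start was about as frequent among the factors as in the whole table. A run of at least 6 C or T bases that reached within 10 bases of an annotated start was present in 15 of 49 factors (30.6%), 33.4% of the genes of the table and 63.9% of ribosomal protein genes. Annotated starts can lie some bases from the true one. Windows of 30 bases (20 before the start and 10 from it) are shown for 3 factors with such a run and 1 without (Eef2). Capitals mark the longest run among those that reach within 10 bases of the start, and longer runs farther away are not marked.
Eef1a1, chr9:78481715-78481744, minus strand: cgtgtgctggctccgCCCTCTTCCCgaggg
Eif4b, chr15:102073753-102073782, plus strand: gcgcaggTCTTCCCgtcggacgccgcgcca
Eif3f, chr7:108934395-108934424, plus strand: gctcttctgttctaggCTCTCTCTCTTTCT
Eef2, chr10:81176611-81176640, plus strand: cgacctataaaaggCCgggcgttgacgtca

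Eef1a1 and Eif3f carried runs of 10 and 15 bases across the start, that of Eif3f ending past the bases shown. The longest run within 10 bases of the annotated Eef2 start was 2 bases. Runs farther from that start were not searched, so the absence of a tract from the Eef2 mRNA was not shown. Of the 7 factors with the ribosomal profile, 6 had a window and 2 of these (Eef1a1 and Eif4b) had a run.

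Other genes of translation control were listed by role, and their spread differed between lists. Of 43 genes in 5 lists, 42 had a mean of at least 5, with a median SD of 0.084. Of these 0 varied over 2-fold, against 3.79% of all genes and 1.59% of those averaging 10 or more. A count of 0 in 42 genes lies near these shares. Enzymes that make hypusine on eIF5A and diphthamide on eEF2 had a median SD of 0.058, termination and recycling factors 0.066, eIF4E and mTOR regulators 0.078 and poly(A)-binding proteins and partners 0.086. Dhps, the first enzyme of hypusine synthesis, ran only from 9.04 to 9.08. The integrated stress response genes, which act downstream of the eIF2 alpha kinases, had the largest value, 0.165. That lay above the median of 0.109 for all genes averaging 5 or more. Atf4, the transcription factor whose translation rises when eIF2 alpha is phosphorylated, measured 12.66, 13.00, 13.01, 12.92 and 12.60 in tumours 1, 5, 8, 14 and 15. It was lowest in tumours 1 and 15. Ppp1r15a (GADD34), which leads the phosphatase that reverses the block, ran from 10.34 in tumour 1 to 11.17 in tumour 5. Not all genes of the list were lower in tumour 1 than in tumour 5: Asns stood at 10.29 and 9.90 there, and Atf5 at 10.31 and 10.12. The eIF2 alpha kinase transcripts themselves differed by at most 1.31-fold.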

How the data were processed

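The authors deposited log2 values per gene, in a table read here as DESeq2 regularised-log output from its short name in the labels; no source used here states the transform outright. The submitters' processing notes name STAR 2.4.1, featureCounts from Subread 1.4.6, DESeq2 and the builds mm10 and GRCm38. Neither the annotation nor the strand setting is stated in the labels. Weakly expressed genes are shrunken towards their mean by this transform. The 2 columns that match no sample in the labels were not used, although they may have entered the transform.

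Exon lengths came from GENCODE M21 (GRCm38), to which all 62 members matched, 1 of them by a RefSeq synonym. Levels per kb subtract log2 merged exon length. SDs are over 5 samples. Pairs were tested by an exact sign-flip permutation test (32 patterns); of 16 pairs, 1 (Eif3j1 and Eif3j2) was not analysed here. Named genes were the extremes of each role, the pair genes and the members of largest and smallest SD; the other members are given by mean. The rule for members used no measured value, but the group was proposed, and the lists were written, with earlier results of these data known. No library pair held an identical value for any member at the full deposited precision. The count of genes varying over 2-fold was tested on simulated data, and the sign-flip test on made-up values. The other steps were not tested this way. Python 3.11.15, numpy 2.4.6 and pandas 2.3.3 were used.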

Additional observations from a re-analysis of the deposited data

Results flagged for a closer look

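A sample was looked at again where its gap to the nearest other sample took up most of the range of the 5 (over 0.71 of it). Of 62 factors 3 met this, and 2 of 15 pairs; chance alone marks about 1 in 20. In tumour 5 Eif4ebp2 stood at 11.03, below a range of 11.25 to 11.33 elsewhere, and Eif4ebp2 minus Eif4e was -0.56 there against -0.30 to -0.25. In tumour 15 Eif2a stood at 10.64, above 10.53 to 10.56 elsewhere. Eef1akmt2 was 8.35 in tumour 8 against 8.44 to 8.48. Eif1 minus Eif1b was 1.52 in tumour 1 against 1.69 to 1.75.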

How the results depend on the processing

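No paired analysis was possible because there is 1 group. Of 226 recomputed values 195 stayed within the limits set and none reversed. Pairs were counted as unchanged even where their size moved. Eif4e minus Eif4e2 was 1.14 and, with transcript length, 0.30. Eif4ebp1 minus Eif4e was -2.57 and, without length subtracted, -4.02. At 1.5-fold the count of varying factors was 1 in place of 0. The median SD of the factors (0.062) was 0.077 with columns centred (all genes 0.113), 0.053 by the median absolute deviation (0.089) and 0.061 to 0.069 leaving out each tumour. Without length subtracted the role medians were 11.95 (elongation), 7.85 (modifying enzymes), 12.97 (cap-binding and helicase), 9.77 (eIF4E-binding), 11.90 (eIF3), 10 (eIF2 and eIF2B), 9.51 (kinases), 11.03 (start codon and joining) and 9.99 (other), so the cap-binding group then stood above the elongation factors. With means in place of medians they were 10.85 (elongation), 10.12 (cap-binding and helicase), 8.14 (eIF4E-binding), 9.98 (eIF3), 8.32 (eIF2 and eIF2B), 6.62 (kinases) and 8.18 (other). Centring columns gave 4 factors lowest in tumour 1 (8 as deposited; 13.6% of all genes when centred), 4 highest in tumour 5 (8; 20.3%), 23 highest and 1 lowest in tumour 14 (14 and 2; 24.1% and 7.6%), and 6 highest and 22 lowest in tumour 15 (12 and 14; 14.9% and 32.9%). It moved the median SD of the other lists to 0.078 (termination), 0.099 (poly(A)-binding), 0.094 (eIF4E and mTOR) and 0.184 (stress response). The SD of Eef1a2 was 0.11 without tumour 5, of Eef1akmt1 0.12 without tumour 8 and of Eef2kmt 0.11 without tumour 15; the cause was not tested. With depth unknown, differences of a few hundredths cannot be set against counting error.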
